A study of Cucumis sativus with 18 samples.

Results

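Day 2 ovules and day 10 embryos of a cucumber (Cucumis sativus) ovary culture were compared, with 3 libraries on each side of the 18 libraries that cover 6 times of the culture. The 6 libraries were chosen by their labels alone, and 18153 of the 23248 listed genes were tested, namely those that reached 1 RPKM in 3 libraries or more out of the 18. RPKM counts the reads of a gene per kilobase of its length and per M (mega) reads of the library. The day 2 libraries come from ovules cultured for 2 days and the day 10 libraries from embryos cultured for 10 days, while the tissue label reads ovary for both. What was sampled therefore changes together with the time, and the tissue and the days of culture cannot be told apart. The design text gives 3 biological replicates at each time. Cultivar, medium, growth conditions, donor plants and sequencing batch are not stated in the labels.

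In ovary culture, young ovaries that have not been pollinated are put on a medium, and cells of the embryo sac can be induced to divide without fertilisation. The embryo-like structures that follow can give haploid plants, from which breeders obtain fully inbred lines after chromosome doubling. In such a culture the ovule is also made of integuments and nucellus, maternal tissues that surround the embryo sac and can themselves grow or die back.

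The gene IDs of the files are not paired with names, and 0 of them were found in the reference table of 23999 cucumber genes, which is of another assembly. Genes are therefore given by ID and with no role, and the labelled tissue was not checked against marker genes. Because whole pieces of tissue were sequenced, fewer cells of a type and less RNA per cell cannot be told apart.

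The 6 libraries differed in depth. The day 2 libraries held 31.3, 21.8 and 48.9 M reads assigned to genes in replicates 1, 2 and 3, and the day 10 libraries held 23.2, 31.4 and 57.4 M reads. Replicate 3 was the deepest library at both times. Across genes, on log2(RPKM + 1), Pearson's r between pairs of day 2 libraries was 0.974 to 0.987, and between pairs of day 10 libraries 0.957 to 0.984. The median SD of a gene over 3 libraries was 0.160 at day 2 and 0.208 at day 10.

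Few genes reached 1 RPKM in all libraries of 1 time and in none of the other. Of the tested genes, 14055 reached 1 RPKM in all 6 libraries. A further 428 genes reached it in the 3 day 2 libraries and in no day 10 library, and 348 genes did the reverse. The 5095 genes left untested were low in these libraries, with 6.37 RPKM as their highest value in any of the 6, and 2230 of them were at 0 in all 6.

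The levels of 9773 genes differed between day 2 ovules and day 10 embryos, which is 53.8% of the genes tested (limma on log2(RPKM + 1), Benjamini-Hochberg adjusted p under 0.05). Lower levels at day 10 were called for 5790 genes (31.9%) and higher levels for 3983 genes (21.9%). The 3 libraries of one time lay wholly apart from the 3 of the other in 5426 of the genes called lower and in 3749 of the genes called higher. Over all tested genes, called or not, the day 10 libraries lay wholly below in 5940 and wholly above in 4118. The calls were made on these same values, so the separation is no support of its own. The median log2 fold change was 0.92 over the genes called higher, -0.72 over the genes called lower and -0.11 over all tested genes.

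The excess of lower calls came from small changes, and the largest changes leaned the other way. Of the genes called with a change under 1.5-fold, 2058 were lower at day 10 and 1005 were higher. Between 1.5-fold and 2-fold, 2027 were lower and 1172 higher. At 2-fold or more, 1705 genes (9.39% of those tested) were lower and 1806 (9.95%) were higher. At 4-fold or more, 347 genes (1.91%) were lower and 575 (3.17%) were higher. At 32-fold or more, 3 genes were lower and 23 were higher.

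Both sides of that pattern moved with the processing. With the libraries scaled by the median ratio of their genes, the median change of all tested genes was -0.02, and the calls were 4838 lower and 4646 higher. Higher calls then made up 49.0% of all calls, against 40.8% with RPKM as deposited. The upper quartile scaling moved them the other way, to 37.9% of calls higher, with 6215 genes lower and 3798 higher and a median change of -0.15. With a pseudocount of 0.1 in place of 1, which raises the fold changes of low genes, 861 genes were 4-fold or more lower and 932 higher. With limma's voom test on the recovered reads, the 4-fold counts were 947 lower and 972 higher. At 2-fold or more the order of the directions turned under several alternatives. Lower genes were then 2508 against 2231 higher with the pseudocount of 0.1, 2452 against 2168 with voom, 1820 against 1737 under the upper quartile scaling and 1827 against 1820 without day 10 replicate 3.

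**Figure D1:**
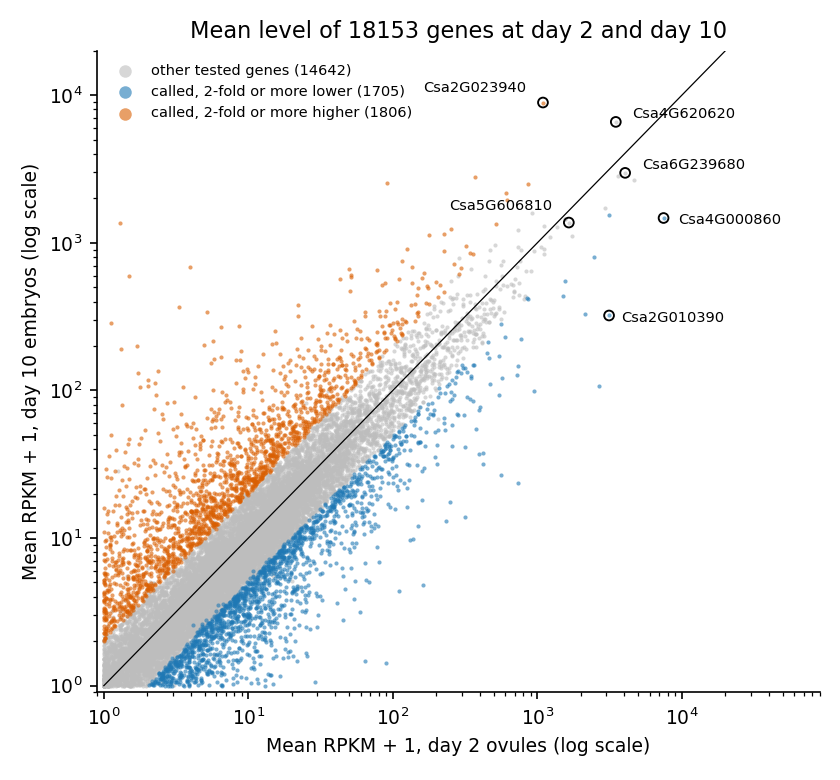
Mean RPKM + 1 of each of the 18153 tested genes in the 3 day 2 libraries (horizontal, log scale) and in the 3 day 10 libraries (vertical, log scale), with the genes called at 2-fold or more in colour, the 6 named genes circled and a line of equal levels. The 1806 genes called higher lie above the line and the 1705 called lower below it, and Csa2G023940 and Csa2G010390 are the abundant named genes farthest from it.

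The direction of change varied with a gene's level. The tested genes were ordered by their mean level over the 6 libraries and split into 5 bins of equal size. This mean was taken on the log scale of the fit and turned back to RPKM. In the lowest bin, with means up to 1.91 RPKM, 24.6% of genes were called lower at day 10 and 14.2% higher. In the middle bin, from 4.72 to 9.23 RPKM, 35.1% were lower and 19.7% higher. In the highest bin, from 20.6 to 4668 RPKM, 33.1% were lower and 32.9% higher, so the calls in both directions were nearly equal in number there. The share called higher increased from each bin to the next, and the same held under both other scalings. Under the median-ratio scaling the highest bin had 37.5% of its genes higher and 27.1% lower, so that which direction was the more frequent in it depended on the scaling.

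Among abundant genes, 4-fold changes were more often upward. In the highest bin, 4.74% of genes were 4-fold or more higher and 2.40% lower, and in the bin just under it 3.58% were higher and 1.24% lower. Both bins kept this order under both other scalings, with the pseudocount of 0.1 and with voom. In the lowest bin 1.18% were higher and 0.881% lower, and there the order turned to 7.13% higher and 10.9% lower with the pseudocount of 0.1.

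**Figure D2:**
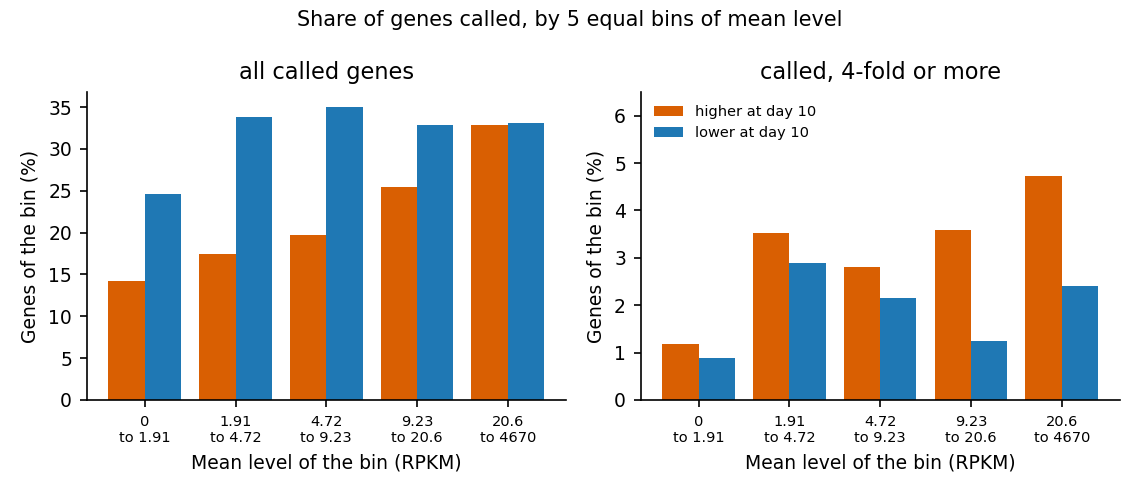
Percent of the tested genes of each of 5 level bins that were called higher (orange) or lower (blue) at day 10. All called genes are on the left and those called at 4-fold or more on the right. The bins go by the mean over the 6 libraries on the log scale of the fit, turned back to RPKM. On the left the share called higher grows from 14.2% in the lowest bin to 32.9% in the highest, and on the right the highest bin has 4.74% higher and 2.40% lower.

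The level classes of single genes showed the same turnover at the top of the range. At a mean of 1000 RPKM or more there were 24 genes at day 2 and 27 at day 10. Of the 24 genes, 15 stayed in that class and 9 were at 100 to 1000 RPKM at day 10. Another 10 genes moved up into it from 100 to 1000 RPKM, 1 from 10 to 100 RPKM and 1 from under 1 RPKM. The class of 100 to 1000 RPKM held 690 genes at day 2 and 757 at day 10, of which 481 were in it at both times. From 10 to 100 RPKM, 236 genes moved up into it, while 195 genes moved down from it to 10 to 100 RPKM and 4 to 1 to 10 RPKM.

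Counted in each library, genes at 100 RPKM or more were 737, 717 and 699 in the day 2 libraries and 810, 811 and 745 in the day 10 libraries. All 3 day 10 libraries held more of these genes than any day 2 library. The means were 718 ± 19.0 and 789 ± 37.8 (SD, n = 3 each), with an exact two-sided permutation p of 0.1, the smallest that 3 against 3 libraries can give. Under the upper quartile scaling the counts were 751, 759 and 716 at day 2 and 814, 813 and 735 at day 10, and the groups then overlapped.

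At 1 RPKM or more the order was the reverse. The day 2 libraries held 16110, 16032 and 16156 such genes and the day 10 libraries 15508, 15846 and 15971. Every day 10 library held fewer than any day 2 library, and the means were 16099 ± 62.7 and 15775 ± 240 (SD, n = 3 each; exact two-sided permutation p = 0.1, and 0.275 adjusted over the 11 measures of this kind). Without day 10 replicate 1 the difference in means was -191 genes in place of -324. Under the median-ratio and upper quartile scalings the groups also did not overlap. With the median ratio they came close, at 16070, 16057 and 16110 at day 2 and 15704, 15975 and 16041 at day 10. At 5 RPKM or more under that scaling they overlapped, at 10745, 10748 and 10691 against 10678, 10797 and 10781. The number of genes at 0 was 3827, 3980 and 3169 at day 2 and 5595, 4127 and 3088 at day 10, and those values overlapped. At both times it was lowest in the deepest library.

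No difference was detected in the share of the summed RPKM that the leading genes held. The 10 most abundant genes of each library held 7.71%, 10.4% and 8.68% at day 2 and 9.59%, 7.97% and 7.25% at day 10. The groups overlapped, at 8.93% ± 1.37 and 8.27% ± 1.20 (SD, n = 3 each; exact two-sided permutation p = 0.6). The leading 100 genes held 22.6%, 25.8% and 23.5% at day 2 and 25.7%, 22.5% and 22.3% at day 10, again with overlap (exact two-sided permutation p = 0.5). With 3 libraries a side these tests cannot show that the shares were alike.

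Which genes led did change. By mean RPKM, 4 of the 10 leading genes, 54 of the 100 leading genes and 699 of the 1000 leading genes were shared by day 2 and day 10. Among the 4 was Csa6G239680, which ranked 3 at both times with 1 very high library at each. The gains in mean RPKM summed to 133331 and the losses to 117885 over all listed genes. Their difference is that of the mean summed RPKM, 433698 at day 2 and 449144 at day 10. On that total the libraries of the times overlapped (exact two-sided permutation p = 0.2). Genes called higher held 93.0% of the gains, and genes called lower held 89.4% of the losses. The 10 genes with the largest gain held 17.7% of all gains and the 100 with the largest gain 41.2%. The corresponding shares of the losses were 18.5% and 40.1%.

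The gene with the largest gain was Csa2G023940, with a recovered length of 500 bases. Its level was 1512, 1530 and 237 RPKM in day 2 replicates 1, 2 and 3 and 12194, 11123 and 3438 RPKM in the day 10 replicates. All 3 day 10 libraries lay above all 3 day 2 libraries, and replicate 3 was far below the other two at both times. The means were 1093 ± 741 and 8918 ± 4776 RPKM (SD, n = 3 each), and the log2 fold change was 3.24 with an SE of 0.82 and a limma adjusted p of 0.00341. Within the replicate numbers, the day 10 level was 8.07, 7.27 and 14.5 times the day 2 level. The gene moved from rank 23 at day 2 to rank 1 at day 10, and from 0.2502% to 1.97% of the summed RPKM. Replicate 3 was its lowest library at all 6 times, for instance at 352 RPKM against 1115 and 1651 RPKM in fresh ovaries. What set replicate 3 apart was not tested. Without day 2 replicate 3 the log2 fold change was 2.35, without day 10 replicate 3 it was 3.83, and a test against a change of 2-fold gave an adjusted p of 0.0799. Leaving out the replicate 3 libraries of all times, chosen after seeing the data, gave a log2 fold change of 2.94 (limma adjusted p 9.11e-07). With a replicate block in the fit of all 18 libraries, the limma adjusted p was 6.14e-09.

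The second largest gain was that of Csa4G620620, a short gene of 285 bases. Its level was 2875, 2807 and 4788 RPKM in the day 2 libraries and 6623, 4895 and 8257 RPKM in the day 10 libraries. The groups did not overlap, although the highest day 2 library and the lowest day 10 library were close to each other. The means of 3490 ± 1124 and 6592 ± 1681 RPKM (SD, n = 3 each) gave a log2 fold change of 0.93 with an SE of 0.26 and a limma adjusted p of 0.00605. It was the leading gene of day 10 replicate 3, with 1.90% of the summed RPKM. Against its mean of 381 RPKM in fresh ovaries, the gene was already high at day 2, was at 8302 RPKM at day 20 and was at 975 RPKM at day 30. Tested against a change of 2-fold, its adjusted p was 1.

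The largest loss was that of Csa4G000860, with 322 bases. Its level was 7149, 8177 and 7086 RPKM in the day 2 libraries and 1905, 1306 and 1204 RPKM in the day 10 libraries. Every day 10 library was well below every day 2 library. The means were 7471 ± 613 and 1471 ± 379 RPKM (SD, n = 3 each), with a log2 fold change of -2.37, an SE of 0.37 and a limma adjusted p of 4.98e-05. It was the most abundant gene at day 2 by its mean and ranked 14 at day 10. Its mean was 2.10 RPKM in fresh ovaries and 72.6 RPKM at day 60, so that its level at day 2 was the highest of the 6 times and that in fresh ovaries the lowest.

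The second largest loss was that of Csa2G010390, with 743 bases. Its level was 2865, 3777 and 2760 RPKM in the day 2 libraries and 363, 365 and 234 RPKM in the day 10 libraries. The libraries of the 2 times were far apart, and the day 10 libraries were close to each other. The means of 3134 ± 560 and 321 ± 75.2 RPKM (SD, n = 3 each) differed 9.77-fold, with a log2 fold change of -3.30, an SE of 0.26 and a limma adjusted p of 2.81e-08. The gene fell from rank 6 to rank 163. It was at 3.78 RPKM in fresh ovaries, at 864 RPKM at day 20, at 61.1 RPKM at day 30 and at 14.8 RPKM at day 60.

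Among the genes not called, Csa6G239680 had the highest mean over the 6 libraries. Its level was 832, 10642 and 677 RPKM in the day 2 libraries and 7793, 623 and 514 RPKM in the day 10 libraries. A single library was very high at each time, replicate 2 at day 2 and replicate 1 at day 10, and the other libraries lay between 514 and 832 RPKM. The log2 fold change of -0.42 had an SE of 1.32 and a limma adjusted p of 0.815. It was the leading gene of day 2 replicate 2, where it held 2.41% of the summed RPKM. At day 20 replicate 1 was again high, at 5551 RPKM against 531 and 379 RPKM. No other gene was at 5000 RPKM or more in 1 library and under 1000 RPKM in the others at both day 2 and day 10. What sets these libraries apart was not tested.

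Csa5G606810 was the other abundant gene not called. Its level was 1896, 1850 and 1206 RPKM in the day 2 libraries and 1642, 1389 and 1081 RPKM in the day 10 libraries. The groups overlapped, with replicate 3 lowest in each. The means were 1651 ± 386 and 1371 ± 281 RPKM (SD, n = 3 each), and the log2 fold change was -0.26 with an SE of 0.22 and a limma adjusted p of 0.353. At the later times it stood at 2911 RPKM at day 20, at 7266 RPKM at day 30 and at 1300 RPKM at day 60.

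**Figure D3:**
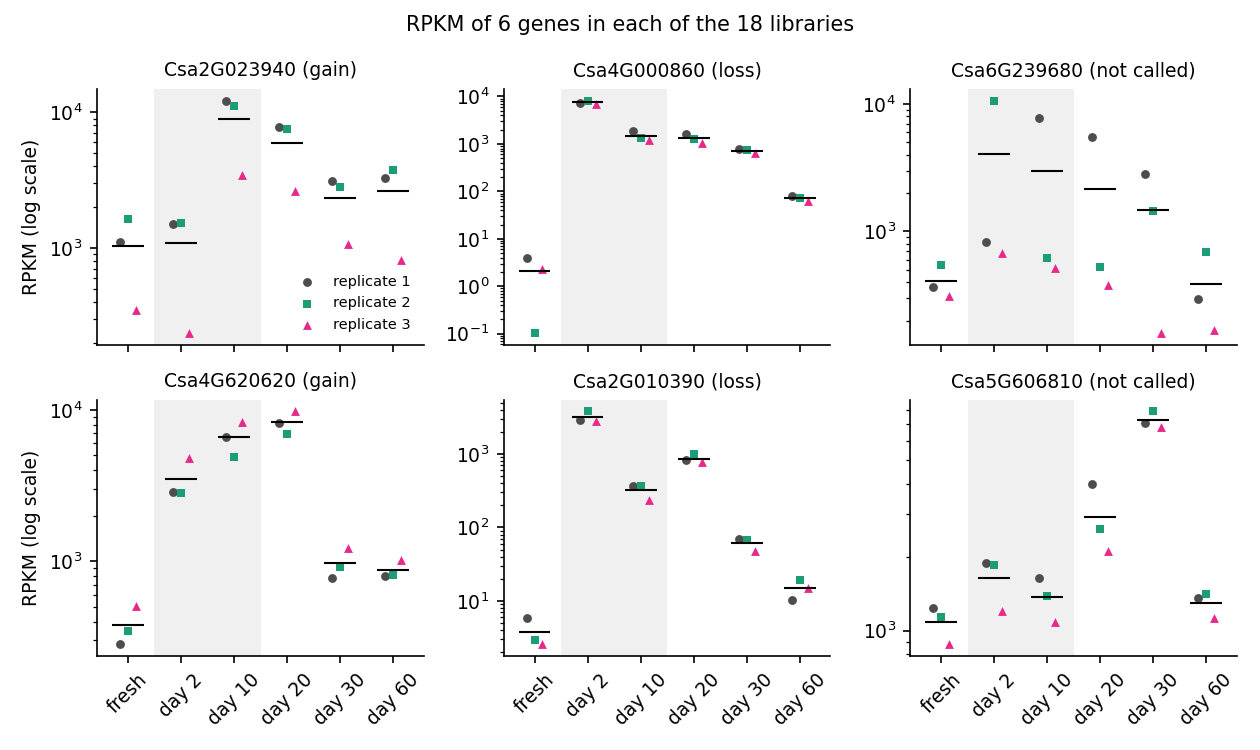
RPKM of the 6 named genes in each of the 18 libraries, on a log axis that differs between panels, with 1 symbol per replicate number, a bar at the mean of 3 libraries and the compared times shaded. Between day 2 and day 10 the 2 genes with a gain and the 2 with a loss do not overlap, while Csa6G239680 has 1 very high library at each time and Csa5G606810 overlaps.

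Genes that passed from near silence to a clear level were few. A gene was taken as switched on when it was under 0.5 RPKM in the 3 day 2 libraries and at 5 RPKM or more in the 3 day 10 libraries, and as switched off in the reverse case. By these limits 41 genes were on and 19 were off at day 10, and since the limits are set on these same values, the fact that all of them were called is no result of its own. The genes switched on had a median of 0.126 RPKM at day 2 and of 10.4 RPKM at day 10, resting on a median of 17 and 2301 reads summed over 3 libraries. The genes switched off had a median of 10.4 RPKM at day 2 and of 0.127 RPKM at day 10, with 1068 and 16 reads. The highest mean reached was 285 RPKM among the genes switched on and 27.8 RPKM among those of day 2 that were switched off.

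The levels of these genes at the other times are set beside them without a test. Of the 41 genes switched on, 30 were also under 0.5 RPKM in the 3 fresh ovary libraries, and 3 were at 5 RPKM or more in them. Of the same 41, 28 were at 5 RPKM or more in the 3 libraries of day 20, 13 in those of day 30 and 4 in those of day 60. Their median level was 13.4 RPKM at day 20, 3.36 RPKM at day 30 and 0.373 RPKM at day 60. Of the 19 genes switched off, 7 were under 0.5 RPKM and 4 at 5 RPKM or more in the 3 fresh ovary libraries. None of the 19 was at 5 RPKM or more in all 3 libraries of day 20, and 4 were at day 30 and 4 at day 60.

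The 4-fold sets can be followed in the same way. The 575 genes higher at day 10 had a median level of 3.98 RPKM in fresh ovaries, 2.78 at day 2, 30.4 at day 10, 23.2 at day 20, 12.4 at day 30 and 6.29 at day 60. The 347 genes lower at day 10 had a median level of 6.25 RPKM in fresh ovaries, 17.96 at day 2, 2.06 at day 10, 3.75 at day 20, 6.32 at day 30 and 5.61 at day 60. Over all tested genes the medians stayed between 6.58 and 7.76 RPKM at the 6 times. The day 2 and day 10 values chose both sets, so only the levels at the other 4 times lie outside that choice.

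**Figure D4:**
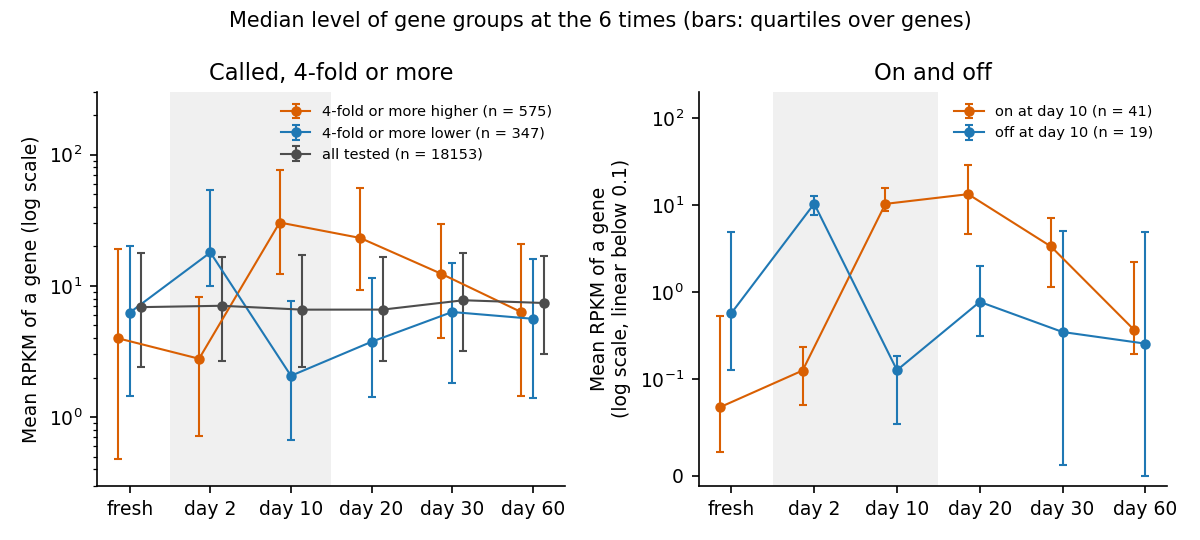
Median over genes of the mean RPKM at each of the 6 times (points, log axis, with quartiles over genes as bars and the compared times shaded), for the 4-fold sets and all tested genes (left) and for the genes switched on or off (right, linear below 0.1 RPKM). The 575 genes higher stand at 30.4 RPKM at day 10 and 6.29 RPKM at day 60, and the 41 genes switched on at 10.4 RPKM at day 10 and 0.373 RPKM at day 60.

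The genes with 4-fold changes were short by the recovered lengths. The median length was 1525 bases in the 575 genes higher and 1509 bases in the 347 genes lower, against 2867 bases over all tested genes. Genes called higher with any fold had a median of 2362 bases, genes called lower 3199 bases and genes not called 2884.5 bases. These are descriptions with no test, and the labels do not state whether introns count in the lengths.

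The calls were spread over the whole gene list. Each ID carries a label from 1 to 7 or UN, and under the labels 1 to 7 between 20.8% and 23.7% of tested genes were called higher and between 31.0% and 33.1% lower. The share of 4-fold higher genes lay between 2.51% for label 4 and 3.79% for label 2. The share of 4-fold lower genes lay between 1.58% for label 3 and 2.42% for label 4. Under UN, with 96 tested genes, 13.5% were called higher and 21.9% lower.

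Few 4-fold changes came in runs of neighbouring IDs. A run was taken as 3 or more listed IDs that follow each other within a label and were all called in the same direction at 4-fold or more. There were 4 such runs, all of 3 genes and all higher at day 10, which hold 12 of the 922 genes with a 4-fold change (1.30%). At 2-fold or more there were 77 runs, 46 higher and 31 lower, with 250 of 3511 genes (7.12%), and the longest had 5 genes. Order in the ID list is taken from the IDs, since no coordinates were used.

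The 4 runs are named after their values were seen, because they are so few. They were Csa1G044880 to Csa1G044900, Csa2G292850 to Csa2G293360, Csa5G155560 to Csa5G155580 and Csa6G085100 to Csa6G085120. The last run held the highest levels. Csa6G085110 was at 3.33, 3.50 and 1.94 RPKM in the day 2 libraries and at 618, 886 and 548 RPKM in the day 10 libraries, a log2 fold change of 7.44 with a limma adjusted p of 5.36e-13. Its neighbour Csa6G085120 was at 0.770, 0.468 and 0.227 RPKM at day 2 and at 553, 770 and 460 RPKM at day 10, a log2 fold change of 8.63 with a limma adjusted p of 6.83e-14. In both genes the 3 day 10 libraries lay far above the 3 day 2 libraries, and replicate 2 was the highest day 10 library. The third gene, Csa6G085100, went from a mean of 4.37 to a mean of 30.3 RPKM, with a log2 fold change of 2.56.

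In the run Csa1G044880 to Csa1G044900 the means of the 3 genes were 0.610, 0.0789 and 0.338 RPKM at day 2 and 9.47, 35.1 and 4.84 RPKM at day 10. At day 20 their means were 38.5, 85.0 and 10.9 RPKM, each above its own day 10 mean. The same was seen in Csa5G155560 to Csa5G155580, with means of 0.943, 7.52 and 0.865 RPKM at day 2, 10.5, 54.0 and 14.4 RPKM at day 10, and 36.0, 222 and 26.6 RPKM at day 20. In Csa2G292850 to Csa2G293360 the means were 0.592, 1.25 and 6.11 RPKM at day 2 and 8.32, 25.9 and 85.4 RPKM at day 10. At day 20 its means were 7.19, 23.4 and 49.5 RPKM, each below its own day 10 mean. The means of Csa6G085100, Csa6G085110 and Csa6G085120 were also lower at day 20 than at day 10, at 14.6, 557 and 385 RPKM. These day 20 values are set beside the others without a test. Neighbouring genes can be near-identical copies, and the labels do not state how reads that fit several copies were counted, so the level of a single gene within a run is uncertain.

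**Figure D5:**
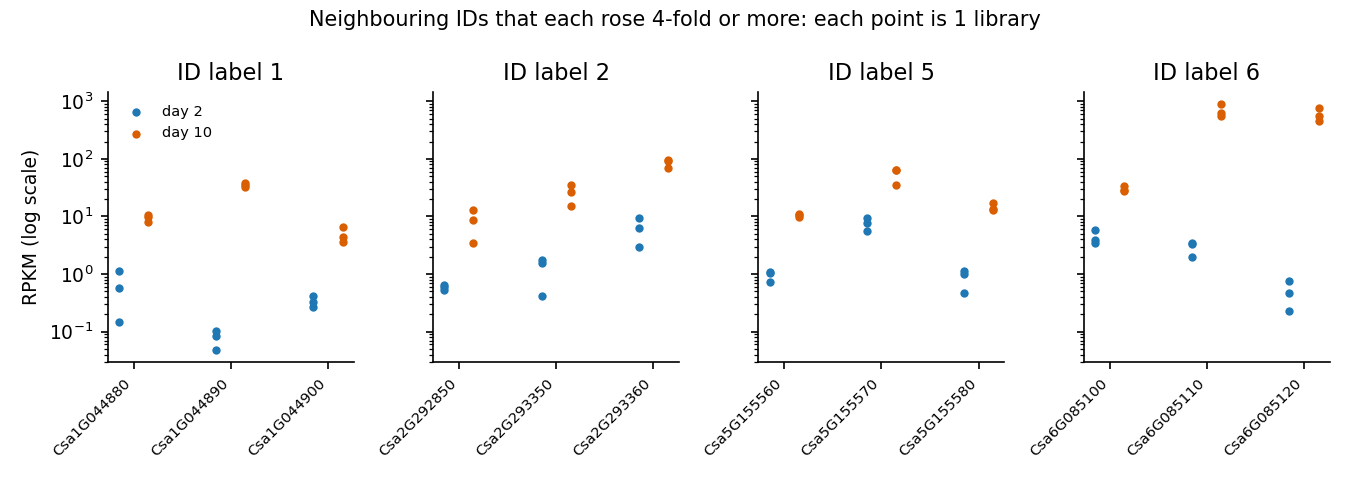
RPKM of the genes of the 4 runs in the day 2 and day 10 libraries, on a log axis, with 1 panel per run and 1 point per library (blue at day 2, orange at day 10). In every panel the 3 day 10 libraries of each gene lie above its 3 day 2 libraries, and the widest gap is that of Csa6G085120.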

How the data were processed

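RNA-seq levels were taken from 18 libraries of 6 culture times, of which the 3 day 2 and the 3 day 10 libraries were compared. The values the authors deposited are RPKM per the file headers, and each library has its own column. In the file of the fresh ovaries 3 library names share 1 header cell, and its columns were assigned by the order of the names. Per the labels' protocols, RNA was isolated with Trizol, treated with DNase, selected for poly(A) and read from both ends on a HiSeq machine. The extraction text also mentions an adipose type, which a plant does not have, so parts of it may describe another study. TopHat2, TopHat and HTSeq 0.6.1p2 were used, per the submitters' processing notes, with no role or setting stated. The sources used here do not give the genome build, the annotation, the strand setting or the treatment of reads with several matches.

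The levels, as log2(RPKM + 1), so with a pseudocount of 1, were fitted in limma 3.58.1 (R 4.3.3) with a trended, robust empirical Bayes variance. The model held all 18 libraries and a coefficient for each time, the contrast was day 10 minus day 2, and genes with at least 1 RPKM in 3 or more libraries were tested. Genes with a two-sided Benjamini-Hochberg adjusted p under 0.05, over all genes tested, were called. Fold changes on this scale understate the change of low genes. Values of 1 number per library were compared by exact permutation over the 20 splits of 3 against 3 libraries, for 11 measures. The limma p-values rest on the spread within each time over all 18 libraries, and the permutation p-values on that among the 6 compared libraries.

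An RPKM of a low gene is a whole number of steps of 1 read, and from these steps library totals, gene lengths and reads were recovered. A step was found for 1193 of 1200 low genes and a length for all 21761 genes above 0. A length was kept only if it made every value of its gene whole within 0.1 read. That 100% of the values were whole follows from this rule and is no check of the recovery. Summed reads came to between 99.9995% and 99.9999% of the totals. limma's voom test on the recovered reads called 9601 genes. The reads carry no molecular identifiers and are not independent molecules, so their numbers speak for counting error only. The fit and the recovery were tested on simulated data.

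Named genes were the 2 called genes with the largest gain and the 2 with the largest loss in mean RPKM, and the 2 genes with the highest mean among those not called. The members, the lists and the limits were chosen with earlier results of these data known. The alternatives were median-ratio and upper quartile scaling, a pseudocount of 0.1, other filters, the 6 libraries alone, a replicate block, a test against 2-fold, voom and leaving out libraries. Other steps ran in Python 3.11.15 with scipy 1.17.1, pandas 2.3.3, numpy 2.4.6 and, for figures, matplotlib 3.10.9.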

Additional observations from a re-analysis of the deposited data

How the results depend on the processing

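The number of genes called stayed within 1.5 times of 9773 under every alternative run except the test against a change of 2-fold, which called 1627 genes, 969 higher and 658 lower. Leaving out 1 library gave between 8843 and 9489 calls, and the fit of the 6 libraries alone gave 7949. The 4-fold counts of 575 higher and 347 lower were 932 and 861 with a pseudocount of 0.1, and 972 and 947 with voom. Over all results and alternatives, 296 of 316 values were taken as kept, by direction and side of the threshold or, for counts, by moving little. Many of the 316 are the same count with a different library left out, so they are not independent. The 2-fold counts with the pseudocount of 0.1 and with voom were among those kept, although the order of their directions turned there. The replicate block gave 11158 calls, 4525 higher and 6633 lower. The deviations of same-numbered libraries correlated at 0.21, 0.08 and 0.54 for numbers 1, 2 and 3, and libraries of numbers 1 and 3 correlated best with their own number while those of number 2 did not, so the numbers were not taken as pairs. In the 6 libraries alone with a replicate block, chosen after seeing the data, Csa5G606810 had an adjusted p of 0.0465. The log2 fold change of Csa6G239680 ranged from -1.68 to 0.85 when 1 library was left out. The difference in the share of the leading 10 genes, -0.663 percentage points, ranged from -1.33 to 0.0785, and that of the leading 100 genes, -0.461 points, from -1.54 to 0.471. Against 2-fold, Csa2G023940 and Csa4G620620 were not called. Leaving out the replicate 3 libraries, also chosen after seeing the data, gave 8458 calls. The causes were not tested. Depth limits the genes at few reads, such as the low side of the genes switched on or off.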

Other observations

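By a limit of 2-fold, replicate 3 stood apart in a small set of genes at both times, while its deviations at day 2 and day 10 correlated at 0.54. In 39 tested genes it was 2-fold or more below both other libraries at day 2 and again at day 10, and in 12 it was 2-fold or more above them at both times. By the same limit, 12 tested genes were above both other libraries of their time in day 2 replicate 2 and in day 10 replicate 1. Csa6G239680, which was high in these libraries, itself meets that limit. The labels state no batches.

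The longest runs of neighbouring IDs changed 2-fold or more in one direction had 5 genes each, and are named after their values were seen. Csa3G730920 to Csa3G730960 were higher at day 10, with log2 fold changes from 1.33 to 2.24. Csa6G191570 to Csa6G193590 were lower, with log2 fold changes from -2.09 to -1.73 and day 2 means from 27.3 to 99.1 RPKM. Csa6G517090 to Csa6G517130 were lower as well, with log2 fold changes from -1.90 to -1.02.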
